A study of Saccharomyces cerevisiae with 8 samples.

Results

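PHO5, PHO89 and ZRT1 are yeast genes for taking up phosphate and zinc, and each was represented by 1 of the 6912 features of a spotted array. The members were the features whose array annotation gave 1 of these symbols alone, which found 3 features. They were chosen by their ratios of yap1d over wild type in the same 8 columns described here, and by the contrast of the strain backgrounds. Their own ratios are therefore given as a description, without a test.

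The array compared Saccharomyces cerevisiae lacking YAP1 (yap1d) with the wild type (WT), both grown in YPD, a rich medium, until the optical density reached 0.5. Cells were then exposed for 2 h to 200 mM hydroxyurea, which blocks the enzyme that makes deoxyribonucleotides. The comparison was made in BY4741, a haploid of mating type a that lacks MET17, and in BY4742, a haploid of mating type alpha that lacks LYS2. Every group had received hydroxyurea, so all values are differences between genotypes in its presence, and cultures without it were not analysed here. Each background had 2 slides, with yap1d RNA in channel 1 of slides 19 (BY4741) and 21 (BY4742) and in channel 2 of slides 20 (BY4741) and 22 (BY4742), and each slide had a column titled fort and a column titled faible, read here as 2 scans. The labels do not say how many cultures or yap1d clones stood behind a slide. Measured spread may therefore be technical, and the small number of arrays limits the precision.

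PHO5 (YBR093C) encodes a secreted acid phosphatase that frees phosphate from organic compounds outside the cell. PHO89 (YBR296C) encodes a plasma membrane transporter that takes up phosphate together with sodium, and ZRT1 (YGL255W) encodes the high-affinity zinc transporter of the plasma membrane. When phosphate is scarce the factor Pho4, with its partner Pho2, switches on PHO5 and PHO89, and when phosphate is plentiful the cyclin Pho80 and the kinase Pho85 keep Pho4 out of the nucleus. PHO89 is also switched on at alkaline pH, through calcineurin and its factor Crz1. ZRT1 is switched on by Zap1 when cells lack zinc.

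All values are log ratios of yap1d over WT, after each column was centred on its median and turned by the labelled channel. Base 2 is assumed, since no label names the base, and folds follow from it: with a natural logarithm the PHO5 fold given below as 1.49 would be 1.78. The top channel of the deposited ratio is not stated either. The direction is likely and not settled: it was taken so that the thioredoxin gene TRX2 (-1.57), the thioredoxin reductase gene TRR1 (-0.998) and the peroxidase gene GPX2 (-2.29), known targets of Yap1, are lower in yap1d. If it is wrong, every sign turns. Such ratios cannot tell a lower share of expressing cells from less RNA per cell.

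Both channels of a slide held RNA of the same background, so a ratio gives no level of a background's own marker. Of 11 strain markers 7 were measured, and with slides left unturned MET17 averaged -0.74 in BY4741 and 0.37 in BY4742, and LYS2 averaged 0.36 in the former and -0.20 in the latter. Among mating-type genes, the effect of yap1d in BY4741 was -0.65 for MFA1 and -0.62 for MFA2, which encode a-factor, against 0.11 and 0.16 in BY4742. For MF(ALPHA)2, an alpha-factor gene, it was 0.05 in BY4741 and -1.55 in BY4742. The alpha-factor gene MF(ALPHA)1 was at -0.21 and -0.04, and STE3, the a-factor receptor gene, at -0.01 and -0.38. None of these 5 passed the test of the strain difference in limma, which called 0 of 6695 units and so does not set them apart. Their part in the PHO89 values was not tested. Loss of YAP1 itself was not examined, because its feature was not analysed here. Medians of the deposited columns ran from -0.28 to 0.04. Slides not turned for genotype correlated over units at 0.761 to 0.862, also across opposite orientations, and the mean of a unit over both orientations, called the channel effect below, had an SD of 0.467 across units. The SD of the effect of yap1d across units was 0.143. A unit is a gene, with its features averaged, or a feature without a single gene name.

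The 3 genes had 3 different patterns. ZRT1 was higher in yap1d in both backgrounds, PHO5 was lower in both, and PHO89 was higher in BY4741 and lower in BY4742. Means over the 2 backgrounds were 0.55 ± 0.0663 for ZRT1, -0.58 ± 0.358 for PHO5 and -0.37 ± 1.26 for PHO89 (SD, n = 2 backgrounds), which are 1.46-fold, 1.49-fold and 1.30-fold. The SD was the smallest part of its mean for ZRT1 and exceeded the mean for PHO89.

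**Figure D1:**
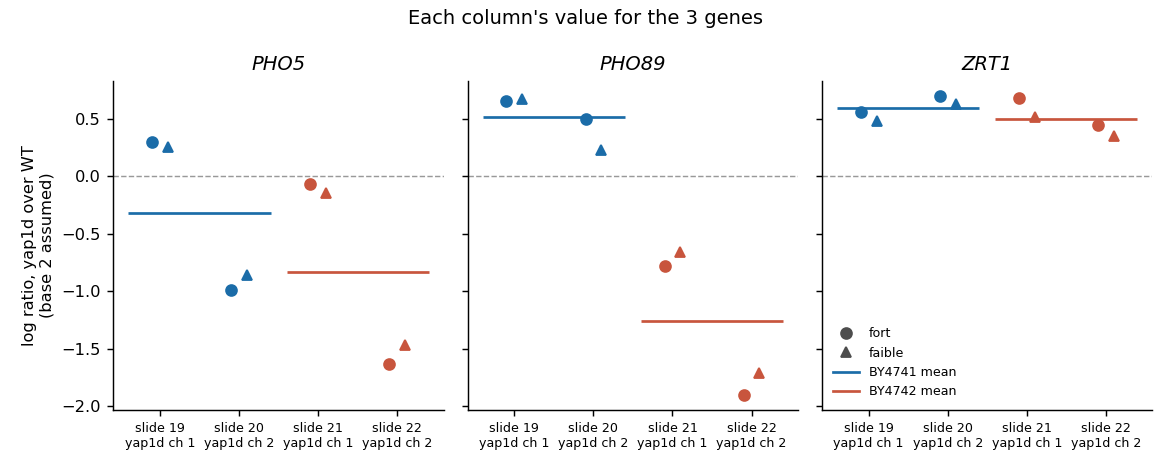
Log ratio of yap1d over WT (vertical axis, base 2 assumed) of PHO5, PHO89 and ZRT1 on each of the 4 slides, with the channel that held yap1d RNA. Circles are fort columns, triangles are faible columns, and lines are the means of each background. All 8 ZRT1 points lie above 0, while PHO89 lies above 0 in BY4741 and below 0 in BY4742, and PHO5 reads lower on slides 20 and 22 than on slides 19 and 21.

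Among the phosphate genes, the transporter gene PHO89 differed most between the backgrounds. In BY4741 it read 0.66 (fort) and 0.67 (faible) on slide 19, and 0.50 and 0.23 on slide 20. In BY4742 it read -0.78 (fort) and -0.66 (faible) on slide 21, and -1.90 and -1.71 on slide 22. All 4 BY4741 columns were thus above 0 and all 4 BY4742 columns were below it. These are 2 scans of 2 slides per background, for a gene chosen by this contrast. How many other units separate in this way was not counted.

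The mean of PHO89 was 0.52 in BY4741, 1.43-fold higher in yap1d, and -1.26 in BY4742, 2.40-fold lower. BY4742 minus BY4741 was -1.78 ± 0.188 (SE from limma), a 3.43-fold shift. This SE, like those of the strain differences below, rests on 1 residual degree of freedom and 7.48 drawn from all units. It is therefore not the spread of the gene's own slides, and the difference ran from -2.17 to -1.38 with 1 slide left out. In size the difference ranked 1 of 6695 units, next to -1.60 for the alpha-factor gene MF(ALPHA)2. In BY4742 the value ranked 9 from the low end, and in BY4741 it ranked 36 from the high end. This contrast chose the gene, so the ranks describe it and test nothing.

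With the channel effect removed, slides of a background lay further apart for PHO89 than for PHO5 or ZRT1, while with it left in PHO5 had the widest gap. The channel effect of PHO89 was 0.15 from the BY4741 slides and 0.54 from the BY4742 slides, which places the effect of yap1d without the channel at 0.32 (slide 19) and 0.71 (slide 20) in BY4741, and at -1.06 (slide 21) and -1.46 (slide 22) in BY4742. Without slide 19 the BY4741 value was 0.91 and without slide 20 it was 0.12, and the BY4742 value was -1.66 without slide 21 and -0.87 without slide 22. The difference between backgrounds was -2.17 without slide 19 or 21 and -1.38 without slide 20 or 22. The channel effect came from these same 4 slides, so each slide value without it is the background mean plus or minus 0.20. All these values follow from the background means and the gap between the channel effects, so they are no independent check of the difference. The mean over backgrounds did not keep its direction, turning to 0.17 without slide 22, so the backgrounds have to be read apart.

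The acid phosphatase gene PHO5 was lower in yap1d in both backgrounds once the channel effect was balanced. In BY4741 it read 0.30 (fort) and 0.26 (faible) on slide 19, against -0.99 and -0.86 on slide 20. In BY4742 it read -0.07 and -0.15 on slide 21, against -1.63 and -1.47 on slide 22. The slides with yap1d in channel 2 were the low ones in both backgrounds, and columns of the backgrounds overlapped.

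PHO5 had a channel effect of 0.66, at percentile 94.0 of the units, with 0.60 from BY4741 and 0.72 from BY4742. Without it, the effect of yap1d on PHO5 was -0.38 (slide 19) and -0.26 (slide 20) in BY4741, and -0.77 (slide 21) and -0.89 (slide 22) in BY4742. The channel effect came from these same 4 slides, so each value is its background mean plus or minus 0.06, equally in both backgrounds. That all 4 were then below 0, with both BY4742 slides lowest, adds nothing to the background means. With the channel effect left in, slide 19 was at 0.28 and slide 21 at -0.11. The background means were -0.32 in BY4741, 1.25-fold lower, and -0.83 in BY4742, 1.78-fold lower. BY4742 minus BY4741 was -0.51 ± 0.136 (SE), and it was -0.35 once the median of each print block was removed. In BY4742, PHO5 ranked 23 from the low end, and in BY4741 it ranked 203.

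The zinc transporter gene ZRT1 gave the same direction in every column. It read 0.56 (fort) and 0.48 (faible) on slide 19 and 0.70 and 0.63 on slide 20, both of BY4741. The BY4742 columns were 0.68 (fort) and 0.52 (faible) on slide 21 and 0.45 and 0.35 on slide 22. The lowest column was thus faible on slide 22 and the highest fort on slide 20, and the backgrounds overlapped.

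ZRT1 had almost no channel effect (0.01, with -0.07 in BY4741 and 0.10 in BY4742). Its means were 0.59 in BY4741, 1.51-fold higher in yap1d, and 0.50 in BY4742, 1.41-fold higher. It ranked 23 from the high end in BY4741, 22 in BY4742 and 12 in the mean. BY4742 minus BY4741 was -0.09 ± 0.143 (SE), smaller than its error, and the sign of this difference turned to 0.08 without slide 20 or without slide 22.

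Fort columns gave larger sizes than faible columns in each background for all 3 genes. For PHO89 the means were 0.58 (fort) and 0.45 (faible) in BY4741, against -1.34 and -1.18 in BY4742, and for ZRT1 they were 0.63 and 0.56 in BY4741. Fort columns were also the wider ones over all units, with an SD of the BY4741 effect of 0.197 against 0.163, and the percentiles of the genes hardly moved (PHO89 in BY4742 at 0.105 and 0.142). Medians of the effect were taken over the 144 features of each gene's print block. In BY4741 the largest in size was that of ZRT1, at -0.05, and in BY4742 that of PHO89. The PHO89 block was at 0.01 in BY4741 and -0.12 in BY4742. The latter lies in the direction of the PHO89 difference, beside an SD of 0.181 over all units in BY4742. With block medians removed, PHO89 was at -1.12 in BY4742 and its strain difference was -1.60, while ZRT1 was at 0.67 in BY4741.

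Ordered by level, the 6 background values were PHO89 in BY4742 (-1.26), PHO5 in BY4742 (-0.83), PHO5 in BY4741 (-0.32), ZRT1 in BY4742 (0.50), PHO89 in BY4741 (0.52) and ZRT1 in BY4741 (0.59). The last 3 of these lay within the spread of their slides. In BY4742, PHO89 lay below PHO5 also without slide 21 (-1.66 against -0.95) and without slide 22 (-0.87 against -0.71). Leaving out a BY4741 slide cannot move these values. Both genes were chosen by such values, so the order is a description.

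**Figure D2:**
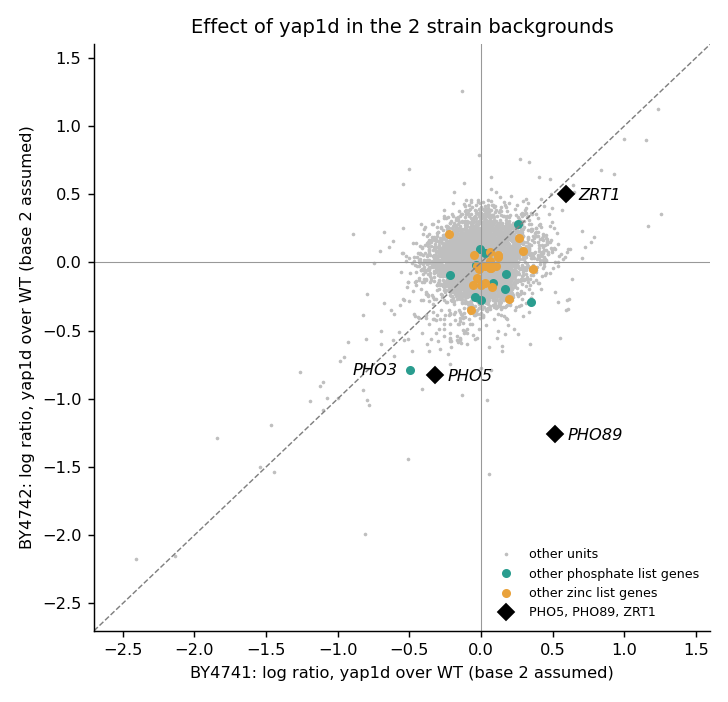
Effect of yap1d in BY4741 (horizontal axis) against BY4742 (vertical axis), both as log ratios of yap1d over WT with base 2 assumed. Each grey point is another unit, coloured points are further genes of the phosphate and zinc lists, and black diamonds are PHO5, PHO89 and ZRT1. The dashed line marks equal effects, and PHO89 lies far below it at 0.52 and -1.26, while ZRT1 lies close to it.

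The further genes of each pathway came from lists of known members of the phosphate and zinc responses, given with the methods. They were tested with limma on the 4 slides with a channel term (two-sided, Benjamini-Hochberg over all units, adjusted p under 0.05). In that fit 73 of 6695 units were called for the effect of yap1d, which is 1.09%, with 53 lower and 20 higher, and 644 had an unadjusted p under 0.05. The number rests on single slides: it was 3 without slide 19 or slide 21, 184 without slide 20 and 164 without slide 22. Of 12 further genes measured in the phosphate lists, 1 was called, PHO3, and it was lower. PHO3 (YBR092C) encodes a constitutive acid phosphatase, lies beside PHO5 in the genome and is closely alike in sequence.

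PHO3 fell by 0.64 on the log2 scale, with an SE of 0.0878 and an adjusted p of 0.00380 in limma. On slides 19, 20, 21 and 22 it was at 0.32, -1.30, 0.02 and -1.59, where PHO5 was at 0.28, -0.93, -0.11 and -1.55. On both genes slides 20 and 22 were the low ones. PHO5 minus PHO3 was thus between -0.13 and 0.04 on 3 of the slides and 0.38 on slide 20. The backgrounds gave PHO3 -0.49 in BY4741 and -0.79 in BY4742.

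The channel effects of the pair were also alike, at 0.81 for PHO3 and 0.66 for PHO5. By the root mean square difference over the 4 slides without the channel effect, PHO3 was 2 in the order of 3126 genes most like PHO5. RNA of either gene may bind both features. The part of such binding in the values was not tested, and no probe sequences were examined here. The features may therefore not be independent of each other. By the same measure DBP2, an RNA helicase gene, lay as near to PHO5 as PHO3 did (0.138 for each). DIA3, which encodes a protein related to the acid phosphatases, was at 0.26 in BY4741 and 0.28 in BY4742 and did not pass (adjusted p = 0.187 in limma). PHO11 and PHO12, the remaining acid phosphatases of this list, were not analysed here.

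The PHO3 call was lost without slide 19 (adjusted p = 0.290 in limma) or slide 21 (0.391), after quantile normalization (0.0867) and with columns scaled to a common spread (0.0529). Its effect in these fits was -0.71, -0.57 (without slide 21), -0.57 and -0.57, close to the -0.64 of all slides. It held in the remaining fits in which PHO3 was tested, apart from the ratios left unturned, where its sign turned. The adjusted p was between 9.89e-08 and 0.0397 in the fits that held.

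**Figure D3:**
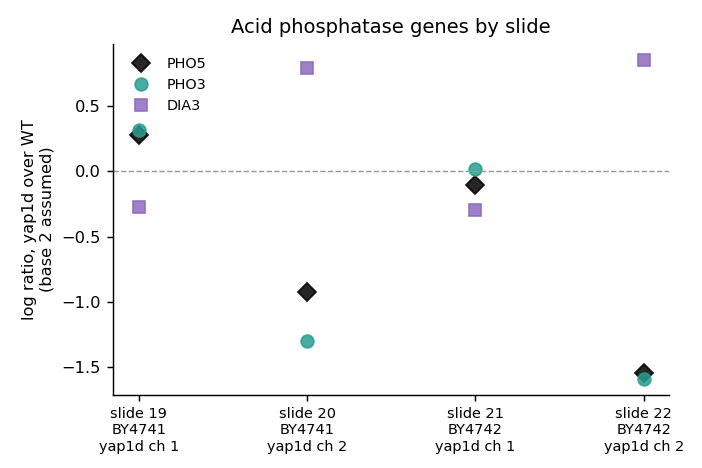
Log ratio of yap1d over WT (vertical axis, base 2 assumed) of PHO5, PHO3 and DIA3 on each slide, as the mean of its 2 scans with the channel effect left in. PHO5 and PHO3 lie close together on slides 19, 21 and 22 (-1.55 and -1.59 on slide 22) and 0.38 apart on slide 20, while DIA3 runs from -0.27 on slide 19 to 0.86 on slide 22.

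Of the 16 genes listed under Pho4, 5 were measured, PHO5 and PHO89 among them. The other 3 did not pass: VTC4, of the vacuolar complex that stores phosphate as polyphosphate, was at -0.14 ± 0.197 (SD, n = 2 backgrounds), PHM6, a phosphate-regulated gene of unknown function, at -0.16 ± 0.0893, and PHO81, the inhibitor of Pho80 and Pho85, at -0.02 ± 0.259. Their median was -0.14, with 0.00 in BY4741 and -0.20 in BY4742, beside 0.00 for the mean over all units. The high-affinity phosphate transporter gene PHO84 was not analysed here.

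Genes that control the pathway or act in it at all times, apart from PHO3, did not pass. PHO4 was at -0.02, PHO80 at 0.05, the sensing gene GTR1 at 0.05, the transporter gene PHO90 at -0.03 and PHO86, needed to send Pho84 to the cell surface, at -0.15. PHO2 was at 0.35 in BY4741 and -0.29 in BY4742, and PHO81 at 0.17 and -0.20. These were the largest differences between backgrounds among the further phosphate genes, in the direction of PHO89 but far smaller (-0.64 ± 0.137 and -0.37 ± 0.149, SE). Of these 12 genes, 7 were lower in BY4742 than in BY4741, with a median difference of -0.22, beside 45.4% of all units and a median of 0.02.

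The strain difference was tested with limma on the same slides. It called 0 of the 6695 units, or 0%, while 773 had an unadjusted p under 0.05. Of the phosphate genes PHO2 (adjusted p = 0.228) and PHO81 (adjusted p = 0.405) were among these. The fit of all 8 columns with the slide as a random block called 469 units, PHO2 among them (adjusted p = 0.0287), and so did the faible columns alone (177 units, PHO2 at an adjusted p of 0.00983).

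None of the 23 further zinc genes measured was called for the effect of yap1d by limma (3 had an unadjusted p under 0.05, beside 644 of all 6695 units), and the fit of strain means also called 0. These 3 were MCD4, which acts in anchor synthesis for surface proteins (0.22 ± 0.0645, SD, n = 2 backgrounds), the membrane gene IZH3 (-0.21 ± 0.199) and the mitochondrial alcohol dehydrogenase gene ADH3 (0.19 ± 0.146). The 23 genes ran from -0.21 to 0.22, with a median of 0.00, and ZRT1, at 0.55, lay outside this range. ZRT1 was chosen by its ratio, so its place beside them is a description and tests nothing.

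Of 27 genes listed under Zap1, 20 were measured, ZRT1 included. The low-affinity zinc transporter gene ZRT2 was at 0.36 in BY4741 and -0.05 in BY4742. ZRT3, which exports zinc from the vacuole, was at 0.12 and 0.06, ZRC1, which imports zinc into the vacuole, at -0.06 and -0.17, and ZAP1 itself at 0.12 and 0.04. ADH4, an alcohol dehydrogenase gene under Zap1 that lies beside ZRT1, was at 0.08 and -0.18. All of these lay below ZRT1 in both backgrounds, and none passed.

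Between backgrounds, 19 of the 23 zinc genes were lower in BY4742, with a median difference of -0.09, beside 45.4% of all units and a median of 0.02. That median was smaller in size than the SE of the single differences given here. The vacuolar transporter gene COT1 (0.20 and -0.27, difference -0.46 ± 0.131, SE) had the largest difference, ahead of the repressor gene NRG2 (-0.23 and 0.21, difference 0.43 ± 0.194) and ZRT2 (-0.41 ± 0.139). ADH1, the main alcohol dehydrogenase gene, was at 0.07 and -0.04. No zinc gene passed the strain test in limma, which called 0 of the 6695 units. Of the 23, 2 had an unadjusted p under 0.05, COT1 and ZRT2, beside 773 of all units. In the fit of all 8 columns, which entered repeat scans separately, COT1 (adjusted p = 0.0399) and IZH3 (adjusted p = 0.0472) passed. There 469 of the 6695 units did.

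**Figure D4:**
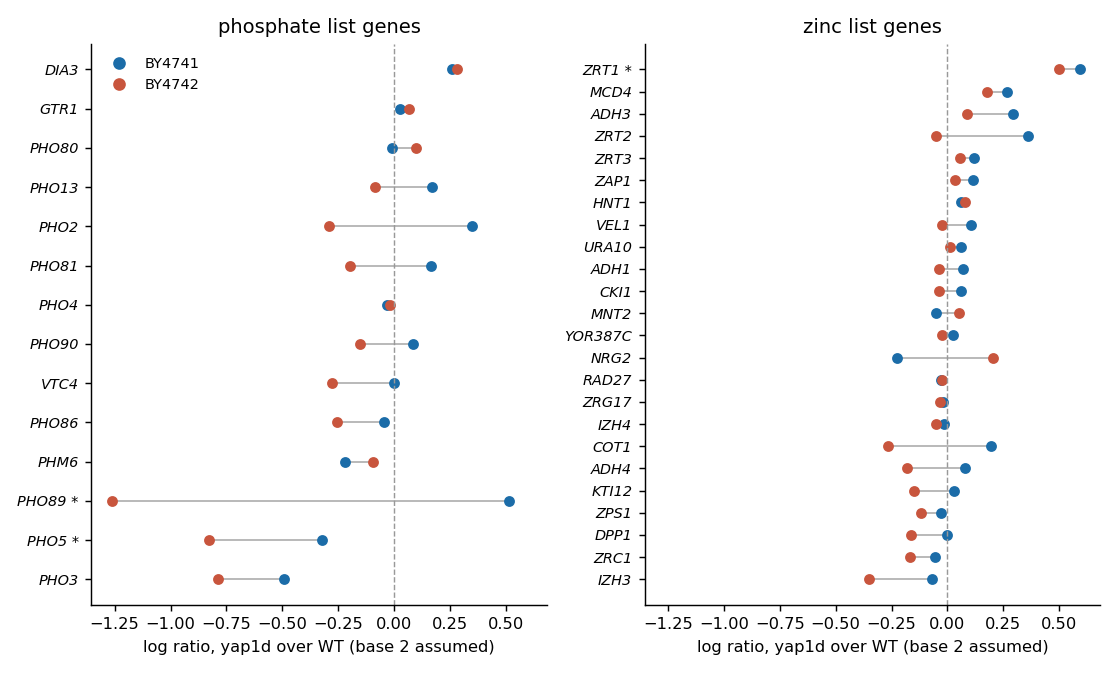
Effect of yap1d in BY4741 (blue) and BY4742 (red) for the measured genes of the phosphate lists (left) and the zinc lists (right), as log ratios of yap1d over WT with base 2 assumed (horizontal axis), ordered by mean. Asterisks mark PHO5, PHO89 and ZRT1, which were chosen by these ratios. PHO89 has the longest bar, PHO3 and PHO5 lie lowest among the phosphate genes, and ZRT1 stands above the other zinc genes in both backgrounds.

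PHO89 was also set beside 10 further genes of alkaline pH and calcineurin, of which none passed in limma (1 of the 10 had an unadjusted p under 0.05, CMK2, beside 644 of all 6695 units) and whose median was 0.00. The factor gene CRZ1 was at 0.19 in BY4741 and -0.02 in BY4742, the vacuolar calcium pump gene PMC1 at 0.30 and 0.02, the calmodulin-dependent kinase gene CMK2 at 0.32 and 0.07, and the calcineurin subunit gene CNA1 at -0.08 and -0.11. VCX1, the vacuolar calcium exchanger gene, was at -0.31 and 0.19, with its lower value in BY4741. None of these 5 lay as low as PHO89 in BY4742, and the sodium pump genes ENA1, ENA2 and ENA5 lay only on features that name several genes and were not analysed here.

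Genome neighbours did not share the values of PHO89 and ZRT1. PCA1, a P-type pump gene next to PHO89, was at 0.09 in BY4741 and -0.15 in BY4742, and FZF1, on the far side of ZRT1 from ADH4, was at -0.04 and 0.30. PBY1, on the far side of PHO5 from PHO3, was at -0.25 and -0.04. Of the measured neighbours, PHO3 alone was close to its member in both backgrounds.

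Genes most like each member were sought over all 3126 other genes, by the root mean square difference over the 4 slides without the channel effect. The nearest to PHO5 were DBP2, an RNA helicase gene (0.138), PHO3 (0.138) and NDE1, a mitochondrial NADH dehydrogenase gene (0.173), and 7 genes lay within 0.2. ZRT1 also had 7 genes within 0.2, led by YDR061W (0.105), GPD2, a glycerol-phosphate dehydrogenase gene (0.119), and YMR315W (0.126). No gene lay within 0.2 of PHO89. Its nearest were the alpha-factor gene MF(ALPHA)2 (0.484), the maltose permease gene MAL31 (0.493) and YKR075C (0.506).

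These neighbours in value shared the strain pattern of PHO89 in part. MF(ALPHA)2, a pheromone gene that cells of mating type alpha express, was at 0.05 in BY4741 and -1.55 in BY4742, MAL31 at 0.34 and -0.60, and YKR075C at 0.15 and -0.65. Each had its lower value in BY4742, but PHO89 was the highest of the 4 in BY4741. None of these 3 passed the strain test (adjusted p = 0.267, 0.0993 and 0.228 in limma), which called 0 of all 6695 units. The likeness was measured on the values that chose the members.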

How the data were processed

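Per the labels, RNA of yap1d and WT cells was labelled indirectly and hybridised together on spotted slides. The authors deposited 1 log ratio per feature and scan, taken here as log2. The base, top channel, background correction and normalization are not given in the sources used here. There were 6912 features in 8 columns, with 0 columns outside the series. GEO's platform annotation gave the symbols, brought up to date by gene identifier (R64): 3344 features had 1 symbol, 387 several and 3181 none here, giving 6695 units, 3127 of them genes.

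Columns were centred on their medians, scans of a slide averaged and ratios turned by the labelled channel. Effects were fitted with lmFit and eBayes (limma 3.58.1, R 4.3.3) on 4 slides with a channel term, leaving 2 residual degrees of freedom, or 1 for the strain difference. The fits were tested on simulated data. Strain means as replicates gave 1 SD for all genes, so that fit is an alternative. Other alternatives varied scan, centring, scaling, orientation, features, slide block, variance prior, filter, threshold and slides. No spot intensities were used here, so no filter on dim spots was possible.

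The members and lists were chosen with earlier results of these data known. The lists were genes under Pho4, genes of phosphate sensing and constitutive use, acid phosphatases of like sequence, genes under Zap1, other zinc genes, and genes of alkaline pH and calcineurin. Genes named were the members, from each list the 4 largest effects, the 2 largest strain differences and any gene that passed, and the 3 genes most like each member. PHO90, PHO4, ZAP1 and ADH4 and the genome neighbours were named for their role or place. Figures were drawn with matplotlib 3.10.9.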

Additional observations from a re-analysis of the deposited data

Results flagged for a closer look

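PHO89 had opposite directions in the backgrounds, a difference of -1.78 for BY4742 minus BY4741. All 4 turned columns were above 0 in BY4741 and all 4 were below 0 in BY4742, as 2 scans of 2 slides per background. The difference between backgrounds was not tested for this gene, since it was chosen by that contrast.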

How the results depend on the processing

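The mean effects of PHO5 (-0.60 to -0.52) and ZRT1 (0.49 to 0.60) and the strain difference of PHO89 (-1.92 to -1.60) kept their direction under the alternatives that kept all slides and turned the ratios, and leaving out 1 slide gave -0.73 to -0.42, 0.48 to 0.61 and -2.17 to -1.38. The PHO89 mean ran from -0.92 to 0.17 over the left-out slides. The strain difference of PHO5 was -0.35 with print block medians removed and -0.63 to -0.39 with a slide left out, and that of ZRT1 was -0.27 to 0.0775, the latter without slide 20 or 22.

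With ratios left unturned, as if the deposited values already ran 1 way, the values hold the channel effect: means of 0.66 for PHO5, 0.35 for PHO89 and 0.013 for ZRT1, strain differences of 0.12, 0.39 and 0.17, PHO5 at 0.60 in BY4741 and 0.72 in BY4742, PHO89 at 0.54 in BY4742 and ZRT1 at -0.0725 in BY4741. Then 4271 units were called, with 7 phosphate and 17 zinc genes. PHO3 was at 0.81, VTC4 at 0.50, PHO80 at -0.47, GTR1 at -0.72, DIA3 at -0.55, ZRC1 at 0.49, CRZ1 at -0.30 and CNA1 at 0.45.

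The 73 units called for yap1d became 43 with scaled columns, 30 after quantile normalization, 117 with strain means as replicates, 40 at an adjusted p under 0.01, and 3 to 184 with a slide left out (3 without slide 19 or 21, 184 without slide 20, 164 without slide 22). The phosphate call, PHO3, became 0 with scaled columns, after quantile normalization and without units at exactly 0 in any column, where PHO3 was not tested, and it was 0 to 1 with a slide left out. The 0 strain calls became 177 with faible columns alone (1 phosphate gene), 40 as deposited, 4 with features kept apart, 469 with the slide as a random block (1 phosphate and 2 zinc genes), 6 without units at exactly 0, and 13 at an adjusted p under 0.1. Except where stated above, the cause was not tested. With 1 slide left out no residual degree of freedom was left for the strain difference, so those are values only. Signal over background was not used here.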
